A study of Homo sapiens and Mus musculus with 10 samples.

Results

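The genes described here encode the proteins of the cytosolic ribosome in A375, an established human melanoma cell line. They were taken by symbol: protein-coding rows of the human table named RPL or RPS with a number and at most 1 closing A, X or L, together with RPLP0, RPLP1, RPLP2 and RPSA. The rule found 81 genes among 63140 rows, 49 of the large and 32 of the small subunit. The rule itself uses names and no measured value. The study compared A375 cells cultured without peptide (Ctrl, n = 3) with A375 cells exposed for 24 h to 80 µg/mL of LL-37 (n = 3), as biological triplicates. The peptide is released from cathelicidin, a host defence protein of neutrophils and epithelia. RNA was read as stranded libraries of polyadenylated RNA, and levels were deposited as TPM, transcript abundances divided by transcript length and scaled so that every library has an equal total. The 4 mouse skin libraries of the series were not analysed here. A line of cultured cells holds no other cell type of a tumour, and every statement below is about this 1 line.

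The ribosome joins a small subunit, which holds the mRNA and reads its codons, to a large subunit, which forms the peptide bonds and passes the new chain through an exit tunnel. Its proteins are made in nearly equal numbers, and their mRNAs are among the most abundant in dividing cells. Most of these mRNAs start with a C followed by a run of pyrimidines, the terminal oligopyrimidine or TOP tract, through which the kinase complex mTORC1 and the binding protein LARP1 set their translation and stability.

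The start sites of several members are printed first, because they show a sequence that many of these genes share and that the rule did not use. RefSeq start entries on GRCh38.p14 matched 64 of the 81 members. Each window holds 15 bases before and 15 from the annotated start base on, read along the gene's strand, with the longest run of C and T in capitals. The set holds some of the members with the largest rises and falls described below, RPL4 of the exit tunnel, the 3 stalk proteins, RPS6, and the pair RPS27 and RPS27L.
RPL35: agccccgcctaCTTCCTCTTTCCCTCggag
RPS3A: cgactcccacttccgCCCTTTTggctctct
RPS9: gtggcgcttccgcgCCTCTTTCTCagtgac
RPL11: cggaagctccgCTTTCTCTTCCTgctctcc
RPL4: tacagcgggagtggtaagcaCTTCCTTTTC
RPLP0: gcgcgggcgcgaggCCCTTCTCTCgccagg
RPLP1: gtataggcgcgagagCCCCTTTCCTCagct
RPLP2: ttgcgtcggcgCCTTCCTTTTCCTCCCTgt
RPS6: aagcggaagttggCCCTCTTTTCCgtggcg
RPS27: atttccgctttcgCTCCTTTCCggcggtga
RPS27L: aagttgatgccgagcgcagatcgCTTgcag
The windows lie at chr9:124861943-124861972 (RPL35, minus strand), chr4:151099613-151099642 (RPS3A, plus), chr19:54200843-54200872 (RPS9, plus) and chr1:23691791-23691820 (RPL11, plus). The others lie at chr15:66504841-66504870 (RPL4, minus), chr12:120201097-120201126 (RPLP0, minus), chr15:69452803-69452832 (RPLP1, plus), chr11:809952-809981 (RPLP2, plus), chr9:19380222-19380251 (RPS6, minus), chr1:153990747-153990776 (RPS27, plus) and chr15:63157463-63157492 (RPS27L, minus). GENCODE 29 places every one of these windows inside the span of its gene except that of RPS27, which reaches upstream of it. Where a gene had several entries, the one nearest to the start of its principal GENCODE 29 transcript was used.

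A C at the start base followed by 4 bases that are each C or T, searched on the gene's strand only, was present in 44 of the 64 members (68.8%). The same letters stood at the start of 1429 of 35116 RefSeq entries (4.07%). The longest run of C and T in the window had a median of 11 bases in the members and 4 bases in all entries. The members ranged from 3 to 24 bases. In the list printed above, RPL4 has an A and RPS27L a G at the annotated start base, and the other 9 carry the C followed by pyrimidines. The list thus holds more such starts than the members as a whole. RPL6 and RPS7, also among the largest falls and rises, have entries without this start and are not printed. A match describes these letters at an annotated start and is no measurement of translation. Among the members without an entry were RPL30, RPL3L, RPL5, RPL23A, RPL23, RPL7, RPS15A, RPL39L, RPS20, RPL8, RPS2 and RPL37.

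The library LL-37-3 stood apart from the other 5 before any comparison was made. It held 12991 genes at 1 TPM or more, against 14304 to 14555 in the others, and its 50 most abundant genes took 39.8% of the total, against 29.8% to 31.1%. Over 13887 genes, its difference from the Ctrl mean was lower for longer transcripts (Spearman's rho = -0.556, across genes of 1 library), while the other libraries ranged from -0.34 to 0.189. The line's lineage markers were present in part. SOX10, a neural crest factor, had means of 283.1 TPM in Ctrl and 292.5 TPM with LL-37, and CSPG4, a surface proteoglycan, 161.9 and 170.4 TPM, while TYR was at 0 and MLANA at or below 0.02 TPM in all libraries. The extraction protocol in the labels names cultured keratinocytes, yet of 8 keratinocyte markers only KRT10, DSC3 and KRT14 passed the filter, their list summed to 21.31 to 29.98 TPM, and KRT1, TP63 and DSG3 were at 0 in every library. The summed level of the 10 melanocyte lineage markers was 529.88 to 576.11 TPM in Ctrl and 723.78, 653.06 and 299.87 TPM in LL-37-1, LL-37-2 and LL-37-3. SOX10 and CSPG4 carry that sum and lay above the Ctrl range in LL-37-1 and LL-37-2, whereas MITF, S100A1 and S100B lay below it in both. Results are given with and without LL-37-3.

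The ribosomal protein genes were among the most abundant of the line. The share of all TPM they held was 34.15%, 35.07% and 33.42% in Ctrl-1, Ctrl-2 and Ctrl-3. It was 33.25%, 34.63% and 43.93% in LL-37-1, LL-37-2 and LL-37-3. The first 2 LL-37 libraries lay beside the Ctrl libraries and the third lay above all of them, so that the groups overlapped. The group means were 34.21% ± 0.828 (SD, n = 3) and 37.27% ± 5.81 (SD, n = 3), a difference of 3.06 percentage points, and without LL-37-3 the difference was -0.274 percentage points. Since TPM are shares of a fixed total, more ribosomal protein mRNA and less of other mRNA cannot be told apart, nor can fewer cells and less RNA per cell.

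**Figure D1:**
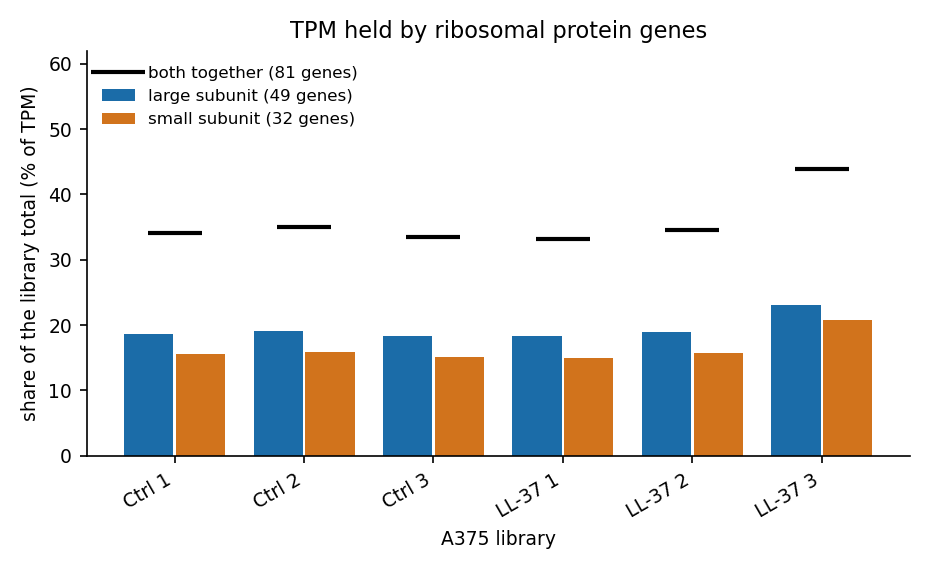
Share of the library total (% of TPM) held by large subunit genes (blue bars), small subunit genes (orange bars) and both together (black marks) in each of the 6 A375 libraries. In 5 libraries the combined share lies between 33.25% and 35.07%, and in LL-37-3 it is 43.93%.

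Levels within the family spread widely. Of the 80 members that passed the filter of 1 TPM in at least 3 libraries, 75 had a mean over 1000 TPM, and the median of the means was 4258 TPM. The highest was RPS27, a zinc-binding small subunit protein, with 16939 ± 815.3 TPM in Ctrl and 17150.1 ± 914.6 TPM with LL-37 (SD, n = 3). RPS21, RPS18, RPL41 and RPL39 followed. RPS21 had 11559.6 ± 210.1 and 13315.4 ± 3211 TPM, and RPS18, a protein of the small subunit head, had 9112.85 ± 518.9 and 10562.5 ± 3521 TPM. RPL41, the shortest protein of the ribosome, had 8091.19 ± 506.5 and 8969.1 ± 1402 TPM. LL-37-3 was the highest library for these 3 and for RPL39.

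The lowest members were paralogs or minor forms. RPL3L, the form of RPL3 known from striated muscle, was the member under the filter, listed at 0 TPM in 5 libraries and 0.03 TPM in LL-37-1. RPL10L, a testis form of RPL10, had 1.11 ± 0.407 TPM in Ctrl and 1.08 ± 0.408 TPM with LL-37. RPL39L, a germ cell form of RPL39, had 10.4 ± 2.28 and 11.84 ± 2.82 TPM. RPS27L, a paralog of RPS27 known as a p53 target, had 165.4 ± 16.3 and 147.9 ± 35.0 TPM. RPL22 (575.7 ± 68.5 and 575.5 ± 76.7 TPM) and RPS26 (662.1 ± 68.5 and 740.6 ± 182.8 TPM) were the lowest of the standard members. The standard partners RPL10, RPL39 and RPS27 stood far above their paralogs in every library.

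No ribosomal protein gene passed the threshold for a difference between LL-37 and Ctrl. On log2(TPM + 1), 0 of 80 tested members had an adjusted p under 0.05 (limma, Benjamini-Hochberg over 14399 genes, smallest adjusted p among members 0.739), where 0.0% of all tested genes did. An unadjusted p under 0.05 was found for 0 members and 363 genes (2.52%). The median log2 change of the members was 0.08, with 62 above 0 and 18 below, and they ranged from -0.21 to 0.37, while the median over all tested genes was -0.20. The fold changes understate the change of the lowest members, because of the added 1 TPM.

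Ctrl and LL-37 values were fully separate for 2 of the 80 members (2.5%), against 12.4% of all tested genes. One member was higher with LL-37 (2.13% of all genes) and one lower (10.3% of all genes). RPL32, a large subunit protein, was at 2333.19, 2597.89 and 2480.74 TPM in Ctrl and 2728.35, 2620.21 and 3300.52 TPM with LL-37. All 3 LL-37 values lay above the Ctrl values, LL-37-2 by little. Its log2 difference was 0.22 ± 0.11 (SE, limma adjusted p = 0.739), and 0.12 ± 0.06 without LL-37-3. RPL7, also of the large subunit, was at 2912.63, 2762.61 and 2804.64 TPM in Ctrl and 2698.20, 2662.74 and 2010.17 TPM with LL-37. All 3 LL-37 values lay below the Ctrl values, most of all LL-37-3. Its log2 difference was -0.21 ± 0.13 (limma adjusted p = 0.739), and -0.08 without LL-37-3.

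Without LL-37-3 the family lay near 0. The median log2 change was -0.01 in the members and -0.00 in all genes, and the members ranged from -0.11 to 0.16. The 95% interval of the difference lay within ±0.25 for 72 of 80 members and within ±0.5 for 79, the exception being RPL10L. With all libraries the interval lay within ±0.5 for 50 members, and its widest edge was 1.08. With LL-37-3 left out, 0 members passed (limma, smallest adjusted p = 0.627), against 17 genes or 0.118% of all tested, and 0 members and 9.01% of all genes had an unadjusted p under 0.05. The groups did not overlap for 12 members (15.0%), against 25.1% of all genes. Of these, RPL32, RPL37 and RPL4 were higher (12.3% of all genes), and 9 were lower (12.9% of all genes), RPL7, RPL14, RPL23A and RPS23 among them.

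**Figure D2:**
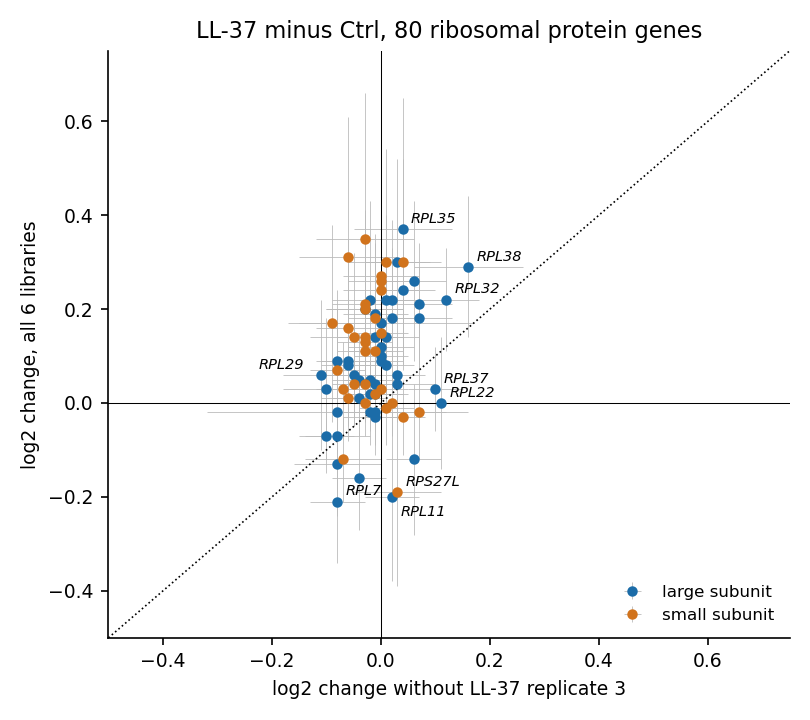
Log2 change, LL-37 minus Ctrl, of the 80 tested members with all 6 libraries (vertical) and without LL-37-3 (horizontal), with standard errors in grey, large subunit in blue and small subunit in orange, and the line of equal values dotted. The horizontal values span -0.11 to 0.16 and the vertical values -0.21 to 0.37.

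The members with the highest changes followed LL-37-3. RPL35, which lies at the rim of the exit tunnel, was at 4717.74, 5787.15 and 5030.69 TPM in Ctrl and 5033.21, 5559.67 and 10554.97 TPM with LL-37. LL-37-1 and LL-37-2 lay within the Ctrl range, and LL-37-3 was 2.02-fold the mean of the other 5 libraries. Its log2 difference was 0.37 ± 0.28 (SE, limma adjusted p = 0.739), or 0.04 without that library. RPS3A, a small subunit protein, was at 3733.64, 4237.89 and 3449.12 TPM and 3421.41, 3879.69 and 7881.63 TPM. Here too 1 library of 6 was high (2.1-fold), and the difference was 0.31 ± 0.30, or -0.06 without it. RPS9 and RPS7 had log2 differences of 0.30 each, and 0.04 and 0.01 without LL-37-3.

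Most of the members with the lowest changes also followed that library, in the other direction. RPL11 was at 3757.91, 3615.28 and 3726.52 TPM in Ctrl and 3845.16, 3651.46 and 2403.49 TPM with LL-37. RPS27L was at 182.79, 162.83 and 150.51 TPM and 168.74, 167.47 and 107.55 TPM. In both, LL-37-3 was the lowest library, at 0.646-fold the mean of the others. The log2 differences were -0.20 ± 0.18 for RPL11 and -0.19 ± 0.20 for RPS27L, and 0.02 and 0.03 without LL-37-3. RPL6, a large subunit protein, had -0.16, and -0.04 without that library, and RPL23, of the same subunit, had -0.13 and -0.08. RPL23 was at 5561.04, 4666.96 and 4708.59 TPM in Ctrl and 4643.23, 4733.27 and 4206.90 TPM with LL-37. Its lower value with LL-37 thus also rested on a high Ctrl-1.

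**Figure D3:**
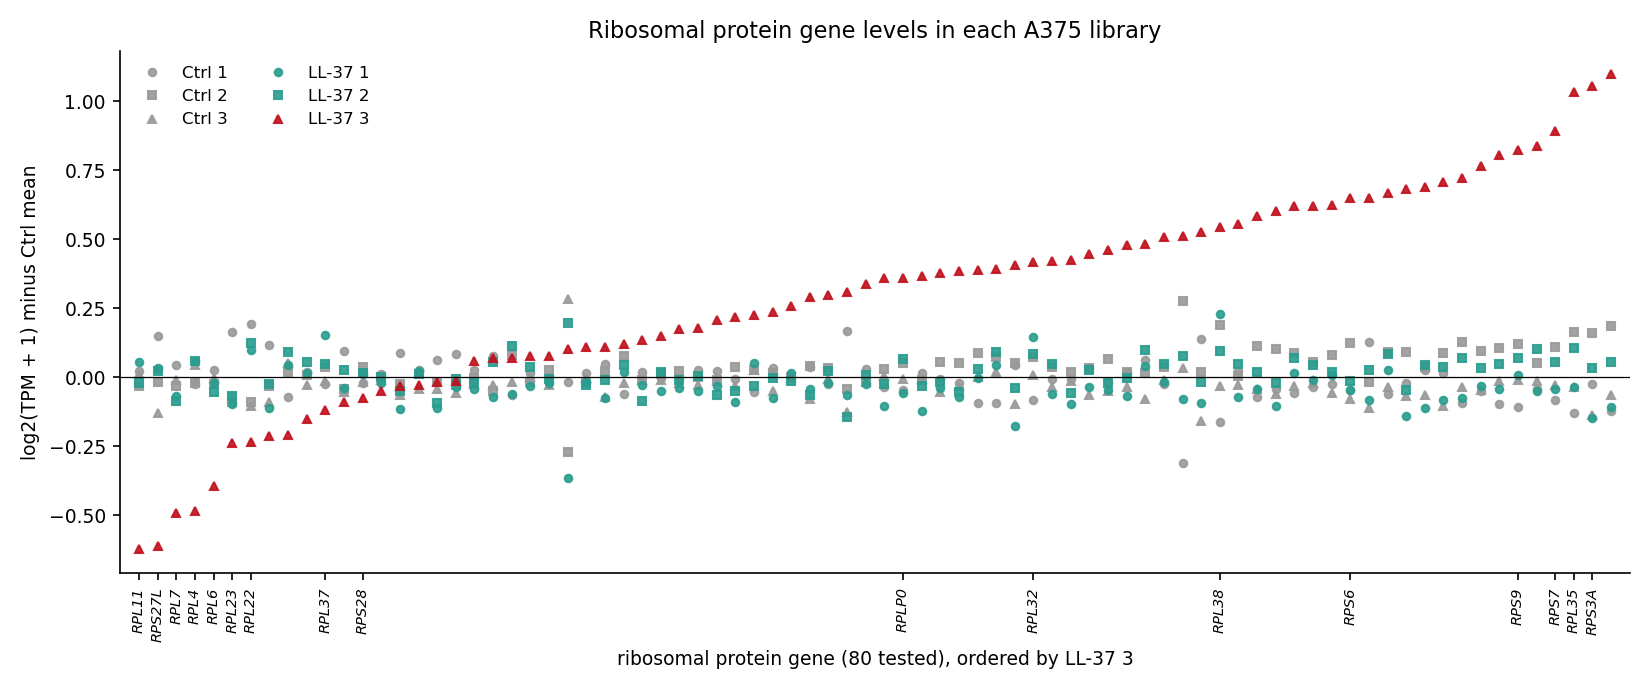
Log2(TPM + 1) minus the Ctrl mean for the 80 tested members (columns) in each A375 library (grey, Ctrl; green, LL-37-1 and LL-37-2; red triangles, LL-37-3), ordered by LL-37-3, with some members named. Of the red triangles, 59 lie above the Ctrl range and 14 below it, and no other library has a value below -0.36 or above 0.29.

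By role, the members named for each task changed little beside their spread. The stalk that recruits the translation factors is made of RPLP0, RPLP1 and RPLP2. RPLP0 was at 5453.44, 5845.99 and 5605.38 TPM in Ctrl and 5412.98, 5896.00 and 7227.26 TPM with LL-37. RPLP1 was at 2701.46, 2698.57 and 2692.61 TPM and 2728.95, 2669.58 and 3224.34 TPM. The log2 differences of the 3 stalk genes were 0.12, 0.09 and 0.08 in that order, and 0.00, 0.00 and -0.06 without LL-37-3. The RPL5 and RPL11 pair, which carries a small ribosomal RNA into the large subunit and binds MDM2 under ribosomal stress, split in LL-37-3. RPL5 was at 1759.03, 1520.95 and 1437.37 TPM in Ctrl and 1499.03, 1417.68 and 1941.21 TPM with LL-37, so that its highest value was the library where RPL11 was lowest.

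Of 8 members around the peptide exit tunnel (RPL4, RPL17, RPL19, RPL23A, RPL26, RPL31, RPL35 and RPL39), 0 passed, and their median log2 change was 0.03, or 0.01 without LL-37-3. RPL4, which lines the tunnel, was at 3791.13, 3804.35 and 3982.92 TPM in Ctrl and 4022.07, 4018.27 and 2760.68 TPM with LL-37. Its first 2 LL-37 values lay above the Ctrl range and the third below it. Among the 4 members of the mRNA entry and decoding side (RPS2, RPS3, RPS9 and RPS23), 0 passed and the median was 0.15, or 0.02 without LL-37-3. On the exit side and platform, RPS14 had a log2 difference of 0.16 and RPS26 one of 0.14, or -0.06 and -0.05 without LL-37-3. RPS28, of the same side, was at 1460.55, 1520.08 and 1464.62 TPM in Ctrl and 1494.41, 1499.13 and 1407.45 TPM with LL-37, a log2 difference of -0.01, or 0.01 without LL-37-3.

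RPS6, the small subunit protein that the S6 kinases phosphorylate downstream of mTORC1, was at 5919.08, 6663.59 and 5780.32 TPM in Ctrl and 5911.20, 6055.98 and 9588.29 TPM with LL-37. Its log2 difference was 0.20 ± 0.19, and -0.03 without LL-37-3, and mRNA levels say nothing of phosphorylation. RPS27A, which is made as a fusion to ubiquitin, was at 2415.60, 2392.48 and 2304.65 TPM and 2409.43, 2389.66 and 2327.10 TPM. It was among the flattest members, with LL-37-3 at 0.977-fold the mean of the others. RPL38, which is known for its part in the translation of Hox mRNAs in mouse embryos, was at 1500.35, 1913.46 and 1641.25 TPM and 1967.63, 1792.11 and 2448.58 TPM. Its groups overlapped, and its log2 differences, 0.29 ± 0.15 and 0.16 ± 0.10 without LL-37-3 (SE), were among the highest of the family in both fits. RPL37 (0.10), RPL22 (0.11) and RPL29 (-0.11) lay at the ends of the range without LL-37-3, and their differences with all libraries were 0.03, -0.00 and 0.06.

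To ask which members moved against the rest of the family, the median log2 value of the members was subtracted in each library before the fit. Again 0 of 80 passed (limma, smallest adjusted p = 0.776), where 0.0% of all genes did, and an unadjusted p under 0.05 was found for 0 members and 0.896% of all genes. The relative differences ranged from -0.30 (RPL7) to 0.28 (RPL35). Groups did not overlap for 11 members (13.8%), against 7.33% of all genes, with 10 higher (1.17% of all genes), all of the large subunit and RPL32 and RPL36A among them. Lower was 1 member (6.15% of all genes). The subtraction centred the members but not all genes, whose median relative difference was -0.28. The shares of all genes are therefore no like reference for these counts. Without LL-37-3, 0 passed (smallest adjusted p = 0.43), 6 had an unadjusted p under 0.05, where 7.93% of all genes did, and 21 did not overlap (26.2%, against 22.2% of all genes). Of the 21, 19 were higher (15.5% of all genes) and 2 lower (6.67% of all genes). RPL32 had a relative difference of 0.16 ± 0.05 in that fit and RPL38 one of 0.21 ± 0.08 (SE).

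The ratio of the subunits was nearly the same in 5 libraries. The TPM of large subunit genes was 1.2, 1.2 and 1.21 times that of small subunit genes in Ctrl, and 1.23, 1.21 and 1.11 times with LL-37. The mean ratio was 1.202 ± 0.00577 in Ctrl and 1.183 ± 0.0643 with LL-37 (SD, n = 3), and LL-37-3 was the low value. The median log2 change was 0.07 for the large and 0.12 for the small subunit, a difference of -0.05. Without LL-37-3 the medians were -0.01 and -0.03, a difference of 0.02, opposite in sign. In LL-37-3 the share of the small subunit was 20.82%, against 14.9% to 15.95% in the other libraries, and that of the large subunit 23.11%, against 18.29% to 19.12%. These are descriptions, with no test over the members.

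The departure of LL-37-3 was uneven over the family. It was the highest library for 59 of 80 members and the lowest for 14. Against the mean of the other 5 libraries, 20 members were at least 1.5-fold higher, 5 were at or under 0.8-fold (RPL11, RPS27L, RPL4, RPL7 and RPL6), and the rest lay between. The SD over members of the log2 difference from the Ctrl mean was 0.379 there, against 0.054 to 0.0778 in the other 5, so that the members lay further from each other there. Among the other 5 libraries the ratio of the highest to the lowest value had a median of 1.1 over the members and 1.14 over the 1206 genes with a mean of at least 100 TPM. The order of the members by level followed that of Ctrl-1 with a Spearman's rho of 0.857 in LL-37-3 and 0.987 to 0.993 in the other 4 libraries (80 genes, 2 libraries each).

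What the members with large departures share was described over features that played no part in the rule. Over 80 members, the log2 difference of LL-37-3 from the other libraries was set against these features. Pearson's r was -0.30 with the length of the principal transcript (Spearman's rho -0.22) and 0.30 with its GC content (rho 0.27). The longest transcript, used over all genes above, is another measure. For coding length, number of exons and gene span r lay between -0.05 and -0.02, and for the level itself it was 0.15. All points come from the same libraries, and length also enters the TPM. The median log2 departure was 0.38 in the 44 members with the C and pyrimidines at the start, 0.26 in 20 with another start and 0.19 in 16 without an entry. By sign, 40 of the 44, 13 of the 20 and 11 of the 16 were above 0, where 2462 of all 14399 tested genes were. The split rests on annotated starts. For RPS29, counted with another start, the entry lay 12334 bases from the start of the principal transcript. For RPL37A, counted with the pyrimidine start, it lay 655 bases away. In RPL4, counted with another start, the pyrimidine run begins downstream of the annotated start base. RPL11 carries the pyrimidine start and was low in LL-37-3 (its departure was -0.63).

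A smaller departure in the same direction was present in a Ctrl library. The deviation of Ctrl-2 from Ctrl-1 and Ctrl-3, and that of LL-37-3 from LL-37-1 and LL-37-2, share no library. Over 80 members they had a Pearson's r of 0.61 and a Spearman's rho of 0.72, or 0.71 and 0.72 over 78 members without RPL10L and RPL39L, and over all 14399 genes r was 0.25. On the log2 scale, RPS3A was 0.24 above the other Ctrl libraries in Ctrl-2 and 1.11 above the other LL-37 libraries in LL-37-3. RPL35 was 0.25 and 1.00 above. The other 8 pairs of a Ctrl and an LL-37 library had r between -0.69 and 0.41. The deviations within a group cancel out over its libraries, so these pairs are tied to the first, which had the highest r. Ctrl-2 was also the Ctrl library whose difference from the Ctrl mean was lower for longer transcripts (rho = -0.34 over 13887 genes), and the part of length in these deviations was not tested.

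**Figure D4:**
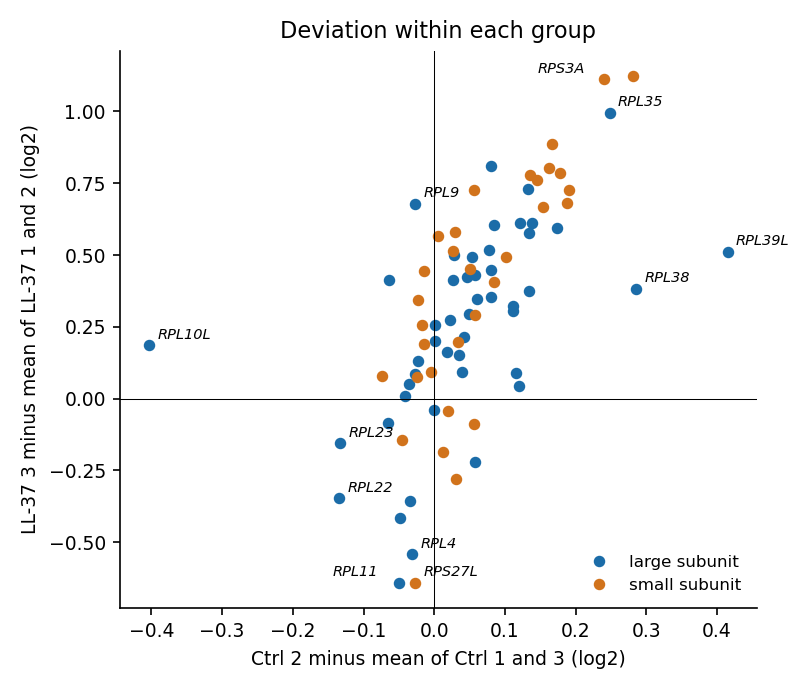
Deviation of Ctrl-2 from the mean of Ctrl-1 and Ctrl-3 (horizontal) and of LL-37-3 from the mean of LL-37-1 and LL-37-2 (vertical), log2 scale, for the 80 tested members (blue, large subunit; orange, small subunit). Members high in one tend to be high in the other (r = 0.61), with RPL35 and RPS3A at the upper right.

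Other genes of the ribosome and its control were read from the same fit. FAU, a ribosomal protein fused to a ubiquitin-like sequence, and RACK1, the scaffold of the small subunit, fall outside the symbol rule. FAU had a log2 difference of 0.15 ± 0.12 and RACK1 one of -0.05 ± 0.07 (SE), or 0.03 and -0.03 without LL-37-3, and neither passed. The 4 paralogs outside the rule (RPL22L1, RPL36AL, RPL26L1 and RPL7L1) had medians of -0.01 and -0.06. Of 13 other genes with TOP mRNAs, 0 passed in either fit, with medians of -0.06 and -0.01. Not all of the 13 are translation genes, HNRNPA1 and NAP1L1 being among them. EEF1A1, the elongation factor that delivers tRNA, was at 13728.13, 14469.39 and 13054.84 TPM in Ctrl and 13029.6, 13629.67 and 20219.52 TPM with LL-37. It was 1.49-fold higher in LL-37-3 and TPT1 1.45-fold, while EEF2, the factor that moves the ribosome along, was at 0.447-fold, PABPC1 at 0.46-fold and EIF4B at 0.433-fold. The last 3 were chosen after their values were seen.

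Of 44 ribosome biogenesis genes, 0 passed in either fit, and their median log2 change was -0.23, close to that of all genes (-0.20), or -0.01 without LL-37-3. NPM1, a nucleolar chaperone, had means of 1978 and 1939 TPM, and EIF6, which keeps free large subunits from joining, 451.6 and 457.7 TPM. Of 16 genes of mTORC1 and TOP mRNA control, 0 passed and the medians were -0.25 and 0.06. In 3 of the 16 genes, Ctrl and LL-37 values were fully separate, where 12.4% of all genes were. EIF4A1, the helicase of cap-dependent initiation, was lower (-0.05 ± 0.07, limma adjusted p = 0.756), as was the cap-binding EIF4E (-0.18 ± 0.13, adjusted p = 0.739), named after its values were seen. EIF4EBP1, a repressor of cap-dependent initiation, was at 244.23, 243 and 235.54 TPM in Ctrl and 260.48, 265.92 and 280.65 TPM with LL-37. It was the one that was higher, and its log2 difference was 0.16 ± 0.09, or 0.13 ± 0.05 without LL-37-3 (SE, limma adjusted p = 0.739 and 0.527). Of 78 mitochondrial ribosomal proteins, 0 passed in either fit, with medians of 0.07 and -0.00. Of 14 proteasome core genes, 0 passed, with medians of 0.08 and -0.02.

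**Figure D5:**
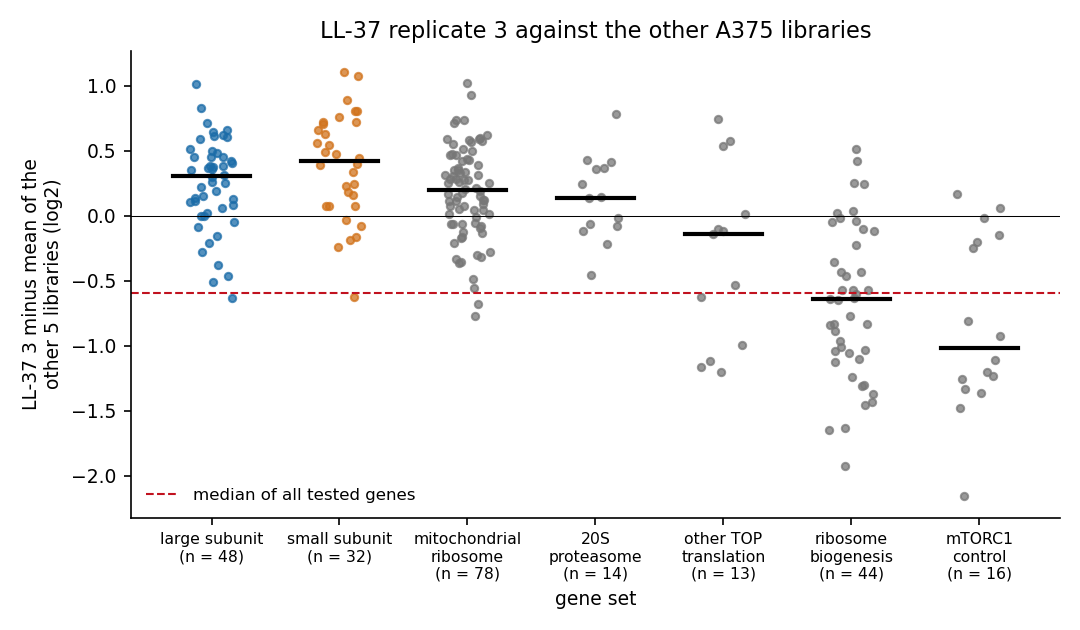
Log2 difference of LL-37-3 from the mean of the other 5 A375 libraries for single genes (points) of 7 sets, with the median of each set as a black line and that of all tested genes (-0.59) as a dashed red line. The medians are 0.31 for large and 0.42 for small subunit genes, 0.20 for mitochondrial ribosomal proteins, 0.14 for the proteasome core, -0.14 for other TOP genes (labelled other TOP translation, though not all are translation genes), -0.64 for ribosome biogenesis and -1.02 for mTORC1 control.

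In LL-37-3 the median log2 difference from the other 5 libraries was -0.59 over all 14399 tested genes. It was 0.35 over the 80 members and 0.20 over mitochondrial ribosomal proteins, whose summed level was 7630.3 TPM against 6202.4 to 6466.9 TPM. It was -0.64 over ribosome biogenesis genes, close to the value of all genes, and -1.02 over mTORC1 control genes. Summed levels of these sets were 5262.1 TPM against 6108.8 to 6479.3 TPM, and 2136.4 TPM against 2438 to 2501.1 TPM. Transcript length was not compared between these sets, and its part was not tested.

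Some members share sequence with other rows, and their levels depend on how reads were divided among the copies. The table holds 1589 rows named as ribosomal protein pseudogenes, of which 1278 were at 0 in all libraries and 71 were tested. Pseudogenes of RPL23A (92 rows) summed to 1959 to 2200 TPM, beside 3230.14 to 3552.62 TPM for RPL23A itself. Pseudogenes of RPS2 (25 rows) summed to 1041 to 1395 TPM. The levels of RPL23A and RPS2 are therefore uncertain. RPL36A is uncertain too: its read-through row with HNRNPH2 ranged from 1.99 to 103.5 TPM, and the copy RPL36AP37 from 161.7 to 692.89 TPM, with the highest value of both in Ctrl-1. No pseudogene passed with all libraries. RPS28P7 passed as lower without LL-37-3, 1 of the 71 tested, where 0.118% of all genes passed. Pseudogenes of RPS28 (5 rows) summed to 18.3, 9.88 and 13.4 TPM in Ctrl. They summed to 0, 0 and 28.88 TPM in LL-37-1, LL-37-2 and LL-37-3. The call thus rests on values at 0, and the library left out held the highest sum.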

How the data were processed

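Levels are TPM per gene, deposited by the authors as 1 table for the 6 A375 libraries. The build GRCh38 is named in the submitters' processing notes, and how reads were aligned and quantified is not given in the sources used. TPM keep no depth, so no counting interval was given. Symbols came from a table of gene names and matched 62541 of 63140 rows. Values were tested as log2(TPM + 1) with limma 3.58.1 in R 4.3.3 (intensity trend, two-sided, Benjamini-Hochberg over the 14399 genes that reached 1 TPM in 3 or more libraries, threshold 0.05). A check of the test on simulated data used noise independent between genes. It did not cover a shift shared by many genes of 1 library. Coordinates, lengths and GC content came from GENCODE 29, and start windows from RefSeq. Members, lists and tests were chosen with earlier results of these data known. Named members were the 5 highest and 5 lowest by level, the 5 largest rises and falls in each fit, and those of lists by role. Other lists name their 2 most abundant genes. Alternatives were pseudocounts of 0.1 and 5, no filter or 5 TPM, median-of-ratios and quantile scaling, removal of mitochondrially encoded genes or of the length trend, no intensity trend, a replicate block and each library left out. The values of some members that this rule takes are not reported here.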

Additional observations from a re-analysis of the deposited data

How the results depend on the processing

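No member passed the threshold under any alternative run for the fit to Ctrl or for that relative to the family median (not refitted with the 3 scalings), nor with the replicate number as a block (0 members in both fits). Over all genes, deviations of same-numbered libraries had correlations of 0.09, -0.20 and -0.17. Every LL-37 deviation involves LL-37-3, which stood apart, so these values could not decide whether the numbers mark pairs. The main fit used no pairing. The 2 members without overlap (2.5%, all genes 12.4%) became 0 with median-of-ratios scaling (all genes 12.6%), 11 or 13.8% with quantile normalization (13.0%), 4 or 5.0% with the length trend removed (13.5%), and 3 to 14 with a library left out (12 or 15.0% without LL-37-3, 14 or 17.5% without Ctrl-2, 13 or 16.2% without LL-37-1 and 8 or 10.0% without LL-37-2, where all genes had 25.1%, 26.7%, 28.2% and 19.1%). The median log2 change of 0.08 became 0.33 with median-of-ratios scaling, which moved the median of all genes from -0.20 to 0.00, and 0.01 with quantile normalization or with the length trend removed, and ranged from -0.01 to 0.17 with a library left out. Its excess over all genes (0.29) was 0.02 with quantile normalization, 0.19 with the length trend removed, 0.15 with no filter and 0.20 with a pseudocount of 5. With a library left out it ranged from -0.01 to 0.48, and the share difference from -0.274 to 5.07 percentage points. Each reversed without LL-37-3 only. The subunit difference of -0.05 became 0.01 with quantile normalization and ranged from -0.07 to 0.02. Of 44 named members, 44 kept their direction with either pseudocount. With median-of-ratios scaling 14 reversed: RPL10L 0.13, RPL11 0.05, RPL14 0.17, RPL19 0.23, RPL22 0.24, RPL23 0.11, RPL26 0.21, RPL3 0.22, RPL4 0.12, RPL6 0.09, RPL7 0.03, RPS2 0.22, RPS27L 0.06 and RPS28 0.23. This scaling divides each library by 1 factor, 0.656 for LL-37-3 and 1.04 to 1.12 for the others. It therefore raised the differences of all named members together, and these 14 had been at or below 0. They are not separate changes of single genes. Without LL-37-3, 21 reversed, among them RPL11 0.02, RPL22 0.11, RPL23A -0.02, RPL29 -0.11, RPL39 -0.01, RPL39L 0.00, RPL4 0.06, RPL5 -0.10, RPLP2 -0.06, RPS14 -0.06, RPS18 -0.09, RPS2 0.07, RPS21 -0.01, RPS23 -0.05, RPS26 -0.05, RPS27 -0.01, RPS27L 0.03, RPS28 0.01, RPS3A -0.06 and RPS6 -0.03. Some of these are small moves across 0. With all libraries RPS28 was at -0.01, RPS27 at 0.02 and RPL23A at 0.02 (SE 0.08 each). Others moved further, such as RPS3A from 0.31. Apart from median-of-ratios scaling and alternatives that leave out a library, the cause of these moves was not tested. Depth is unknown, and 3 libraries per group limit the precision.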
